A study of Homo sapiens with 6 samples.

Results

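Macroautophagy encloses cytoplasm in a double-membraned vesicle, the autophagosome, and delivers it to lysosomes. A kinase complex built on ULK1 starts the process, a lipid kinase complex built on PIK3C3 marks the membrane, lipid carriers enlarge it, and a ubiquitin-like conjugation system attaches small ATG8 proteins to it. Cargo receptors such as SQSTM1 then tie ubiquitinated cargo to the ATG8 proteins. The genes described here are 37 members of this machinery, taken by gene symbol from a table of 54261 gene rows, of which 16642 passed a filter on low counts and were tested. Of the 37 members 36 passed that filter, and MAP1LC3A did not.

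RNA of 7R, which the labels present as 786-O cells resistant to sunitinib, was compared with RNA of 786-O cells labelled control, 3 libraries each. The 786-O cells are a long-established culture of human clear-cell renal carcinoma that lacks functional VHL, a background that both groups share, and sunitinib is an inhibitor of receptor tyrosine kinases. The labels do not say how 7R was selected, whether it is a single clone, or whether sunitinib was present when RNA was taken, and 7R is a single line. They also do not say whether the libraries came from separate cultures, so p-values measure only how far these libraries spread, and that spread may be technical. In RNA of a whole culture, a change in the share of cells that express a gene and a change in RNA per cell cannot be told apart.

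Total counts were 37919629 to 38131634 per library in 7R and 48264905 to 52221491 in 786-O. The first principal component held 85.2% of the variance. Within 7R, replicate 1 stood apart: a chi-square test of counts gave 62.9 per degree of freedom against replicate 2 and 60.1 against replicate 3, and 8.94 between replicates 2 and 3. In 786-O, replicate 1 was also the farther one, with 26.5 against replicate 2, 35.5 against replicate 3 and 12.4 between replicates 2 and 3. The extraction text mentions a brain region. All 7 renal carcinoma markers looked up (PAX8, PAX2, LHX1, VIM, KRT8, KRT18 and EPAS1) were detected, with a count above 0, in every library. LHX1 was the lowest of them, at 0.394 to 0.830 CPM. The summed counts of the 7 were 139031 to 181107 in 7R and 543049 to 611259 in 786-O. Most of these came from VIM (92784 to 120564 in 7R and 419504 to 457461 in 786-O), while PAX8 had 397 to 415 CPM in 7R and 493 to 585 CPM in 786-O. Of the brain markers, MOG was at 0 in every library and GFAP had at most 8 counts. The astrocyte marker AQP4 had 12, 17 and 17 counts in the 7R libraries and 0 in every 786-O library. Of the 6 neuronal genes, all 6 were detected in every 7R library and 5 in every 786-O library. They summed to 3204 to 4050 counts in 7R and 4802 to 5198 in 786-O, mostly NEFL. Neuronal SNAP25 had 11.1 to 14.4 CPM in 7R and 2.97 to 3.84 CPM in 786-O, and SYT1 1.46 to 2.71 CPM in 7R and 0.323 to 0.552 CPM in 786-O, opposite to that sum. The oligodendrocyte markers summed to 1626 to 1764 counts in 7R and 1018 to 1203 in 786-O, nearly all from MBP. The leukocyte markers PTPRC and CD3E were at 0 in every library, and CD14 had 4 to 8 counts. The endothelial markers summed to 27 to 35 counts in 7R and 1 to 25 in 786-O. The fibroblast markers summed to 75 to 121 in 7R and 156 to 190 in 786-O, mostly COL1A1. Among these, DCN went the other way, with 9, 15 and 6 counts in 7R and 0, 5 and 4 in 786-O. The part of other cells in the results below was not tested.

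Most of the machinery differed between the lines, in both directions. Levels are given as counts per library scaled to CPM on the TMM scale. Among the 36 tested members 18 were higher in 7R (50%) and 12 were lower (33.3%), at an adjusted p under 0.05 (edgeR's quasi-likelihood test with Benjamini-Hochberg adjustment over all genes tested). Over all 16642 genes 76.2% were called, 39.3% higher and 36.9% lower, so that a call by itself does not set these members apart. At least 2-fold higher were 6 members, beside 27% of all genes, and at least 2-fold lower were 5, beside 22.4%. The median log2 fold change, 7R over 786-O, was 0.36 for the members and 0.05 for all genes. The 7R and 786-O libraries did not overlap for 33 members (91.7%), and for 80.3% of all genes. Without 7R replicate 1, 19 members were higher and 13 lower. Library totals alone, without TMM factors, moved the median of all genes to 0.39 and their calls to 47.2% higher and 28.4% lower, and left 20 members higher and 9 lower.

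**Figure D1:**
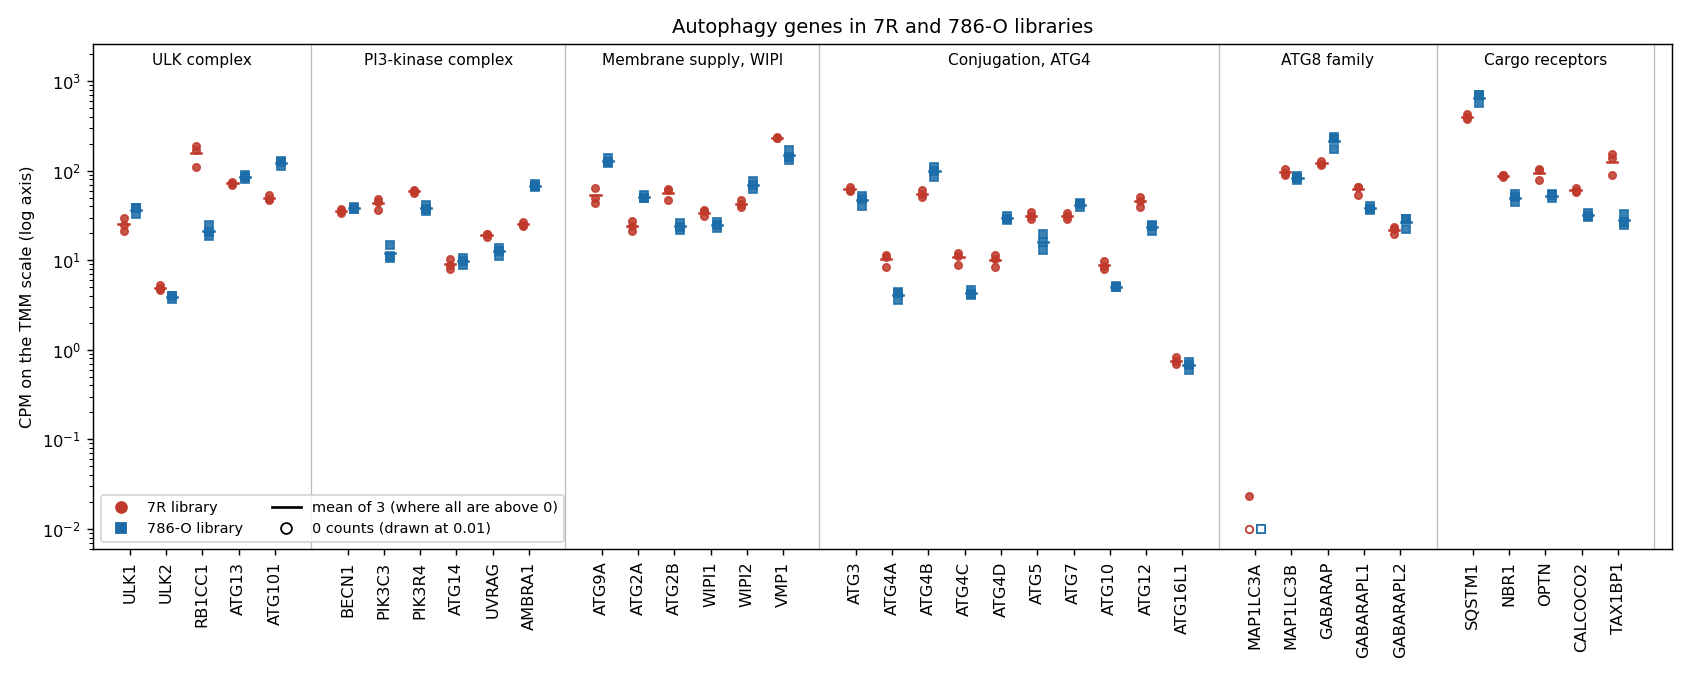
Level in CPM (log axis) of the 37 members in each library, grouped by step, with 7R left of 786-O within each gene, short bars for the mean of 3 and libraries without a count drawn at 0.01. RB1CC1, TAX1BP1 and PIK3C3 stand clearly higher in 7R, AMBRA1, ATG101 and ATG4D clearly lower, and MAP1LC3A is at the floor in both lines.

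The direction of a member followed the base composition of its transcript. GC content was taken as the median over the gene's GENCODE 29 basic transcripts and ran from 34.7% in ATG4C to 64.8% in ATG4D. Across the 36 tested members the log2 fold change had a Spearman correlation of -0.88 and a Pearson correlation of -0.86 with GC content, against a Spearman correlation of -0.69 across the 14201 tested genes that have a GC value. These are descriptions across genes that share the same 6 libraries, and genes are not independent replicates. Of the 21 members under 50% GC 17 were higher in 7R, 0 were lower and 4 were not called, while of the 15 at or above it 1 was higher, 12 were lower and 2 were not called. The 50% line was chosen after the values were seen. The Spearman correlation was -0.84 with the GC content of the coding sequence and -0.86 with that of the last base of its codons, which ran from 29.4% to 83.4%. The trend was also present between libraries of 1 line. Across genes, the difference of 7R replicate 1 minus replicate 2 had a Spearman correlation of 0.54 with GC content, that of replicate 1 minus replicate 3 one of 0.49 and that of replicate 2 minus replicate 3 one of -0.13. In 786-O the same differences had correlations of -0.33, -0.50 and -0.33. In the promoters, 250 bases before to 50 after the start in RefSeq (GRCh38.p14), the Spearman correlation of GC content with the log2 fold change was -0.32 over the 33 members that have an entry.

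The ATG4 proteases, which trim ATG8 proteins before conjugation and release them afterwards, cover the whole of that range within 1 family. The first 120 coding bases of its 2 ends are shown, ATG4C from chromosome 1 and ATG4D from chromosome 19 (GENCODE 29, GRCh38, sense strand), with G and C in capitals.
ATG4C: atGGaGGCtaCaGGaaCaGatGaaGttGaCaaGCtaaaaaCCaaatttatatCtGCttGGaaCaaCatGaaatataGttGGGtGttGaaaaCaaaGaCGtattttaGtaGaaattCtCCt
ATG4D: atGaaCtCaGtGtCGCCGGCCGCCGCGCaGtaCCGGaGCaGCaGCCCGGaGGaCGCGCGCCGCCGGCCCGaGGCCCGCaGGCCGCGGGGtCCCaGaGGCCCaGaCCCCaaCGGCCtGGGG
The GC content of these stretches is 34.2% in ATG4C and 78.3% in ATG4D. ATG4C had 8.94, 12.2 and 11.3 CPM in the 7R libraries, against 4.61, 4.06 and 4.18 CPM in the 786-O libraries. ATG4D had 11.3, 8.34 and 10.4 CPM in the 7R libraries, against 28.5, 28.4 and 31.01 CPM in the 786-O libraries. The libraries of the lines did not overlap for either gene, and the directions were opposite. The log2 fold change was 1.33 ± 0.17 (SE, adjusted p = 1.49e-05) for ATG4C and -1.55 ± 0.14 (SE, adjusted p = 9.37e-07) for ATG4D.

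Because the trend ran through all genes, each value is also given after the dependence on GC content and length was fitted in every library and removed, and such values are called GC-adjusted or given after adjustment. That step takes out any difference that goes with GC content, whatever its source, and the source of the trend was not tested. With it, 19 members were higher in 7R (52.8%), 6 were lower (16.7%) and 11 were not called, beside 67% of genes called, 34.4% higher and 32.6% lower, over the 14201 genes fitted. At least 2-fold higher were then 3 members (RB1CC1, GABARAPL1 and TAX1BP1), beside 14.2% of all genes, and at least 2-fold lower were 0, beside 9.2%. Of the 18 members higher before, 12 stayed higher, 5 lost the call and 1, ATG12, became lower. Of the 12 lower before, 2 stayed lower (AMBRA1 and GABARAP), 4 lost the call and 6 became higher (ULK1, ATG13, ATG2A, WIPI2, ATG4B and SQSTM1). Without 7R replicate 1 this fit called 19 higher and 8 lower. The Spearman correlation with GC content was then 0.02 over the members. The adjusted log2 fold change was 0.070 ± 0.13 (SE, adjusted p = 0.657) for ATG4C and 0.030 ± 0.090 (SE, adjusted p = 0.786) for ATG4D, both near 0.

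**Figure D2:**
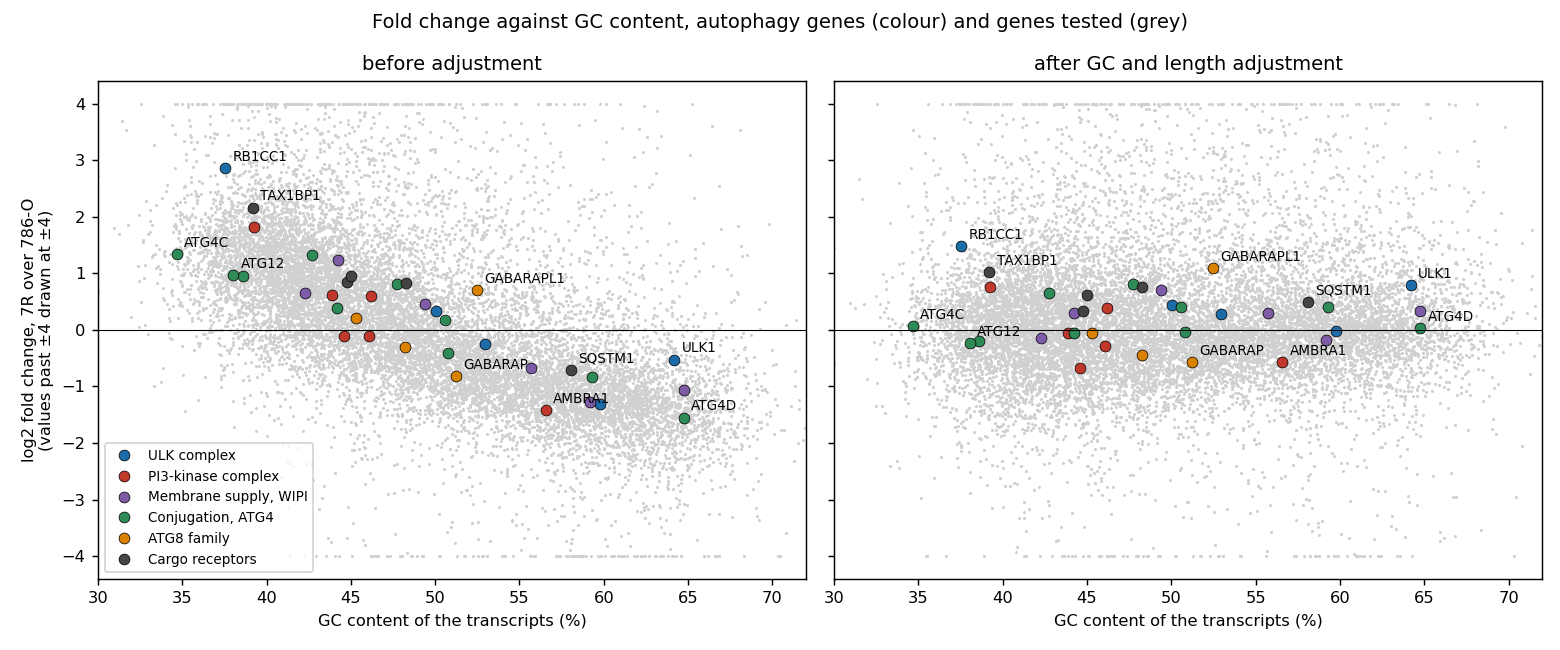
Log2 fold change, 7R over 786-O, against transcript GC content in percent, before (left) and after (right) the GC and length adjustment, for the members in colour and the tested genes with a GC value in grey (values past ±4 drawn at ±4). Before adjustment the members run from high to low as GC content increases (Spearman correlation -0.88 over 36 genes), and after it they do not (0.02).

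**Figure D3:**
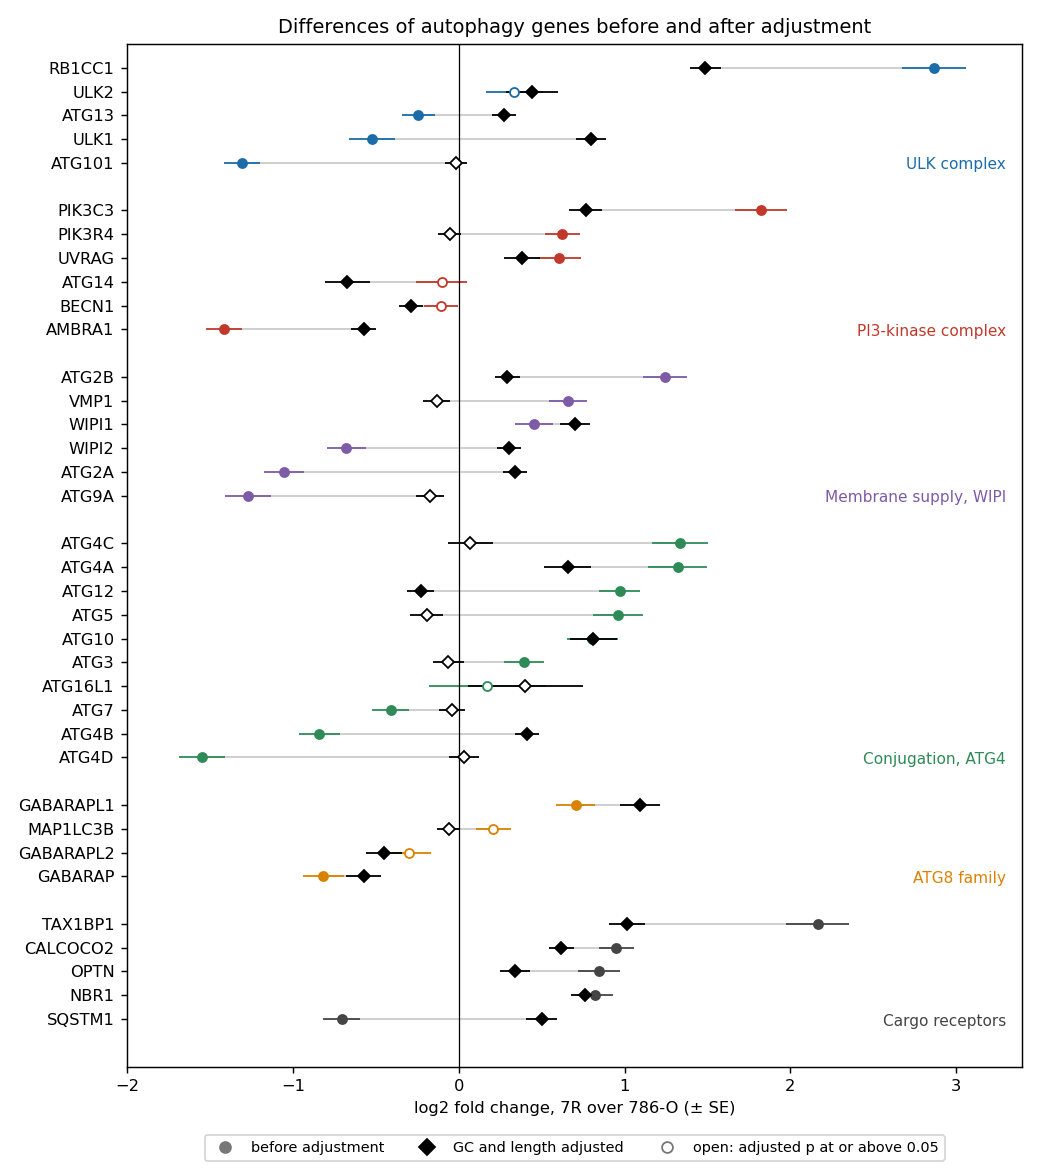
Log2 fold change of each tested member, 7R over 786-O, with SE bars, before adjustment (coloured circles) and after GC and length adjustment (black diamonds), open where the adjusted p was at or above 0.05. RB1CC1, TAX1BP1 and PIK3C3 stay right of 0 on both scales, AMBRA1 and GABARAP stay left, and ULK1 and SQSTM1 cross from left to right.

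Initiation begins with the ULK complex, in which 1 of 5 genes was higher in 7R, 3 were lower and 1 was not called. Beside the counts of each step, 39.3% of all genes were higher and 36.9% lower before adjustment. After adjustment these shares were 34.4% and 32.6%. RB1CC1, also called FIP200, is the large scaffold of the complex and had the largest log2 fold change of the 36 tested members. Its level was 109, 170.4 and 187 CPM in the 7R libraries, against 25.1, 20.4 and 18.6 CPM in the 786-O libraries. Every 7R library was above every 786-O library, and replicate 1 was the lowest of the 7R libraries. The log2 fold change was 2.87 ± 0.19 (SE, adjusted p = 1.96e-07), and the ratio of the means was 7.30. Adjusted levels were 86.9, 102 and 110.2 CPM in 7R, against 38.1, 34.6 and 34.2 CPM in 786-O, and the adjusted log2 fold change was 1.49 ± 0.095 (SE, adjusted p = 1.70e-07), still the largest among the members.

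Of its 4 partners 3 were lower in 7R before adjustment. ATG101, which joins ATG13 to hold the complex together, had 53.2, 46.9 and 48.5 CPM in the 7R libraries, against 113, 126 and 129 CPM in the 786-O libraries, and its log2 fold change, -1.31 ± 0.11 (SE, adjusted p = 5.88e-07), shrank to -0.018 ± 0.066 (SE, adjusted p = 0.8196) with adjustment. ULK1, the kinase itself, had 29.7, 20.96 and 25.04 CPM in the 7R libraries, against 38.2, 32.8 and 38.1 CPM in the 786-O libraries. All 7R libraries lay below the 786-O ones, and the log2 fold change was -0.53 ± 0.14 (SE, adjusted p = 0.00421). With library totals alone it was -0.18, without a call (adjusted p = 0.262). After adjustment its direction turned: ULK1 had 44.2, 39.01 and 41.9 CPM in 7R, against 26.6, 22.1 and 23.3 CPM in 786-O, and its log2 fold change became 0.80 ± 0.092 (SE, adjusted p = 1.39e-05). ATG13, the adaptor that receives nutrient signals, had 72.3, 68.8 and 75.1 CPM in the 7R libraries, against 80.7, 85.98 and 89.2 CPM in the 786-O libraries. Its log2 fold change was -0.24 ± 0.10 (SE, adjusted p = 0.0442), which became 0.27 ± 0.073 (SE, adjusted p = 0.00598) after adjustment and 0.10 with library totals alone. The call on ATG13 before adjustment was lost when any 1 of 4 libraries was left out (adjusted p 0.0712 without 786-O replicate 2, 0.093 without 786-O replicate 3, 0.141 without 7R replicate 2 and 0.065 without 7R replicate 3). It was also lost with upper-quartile factors (0.129), without a filter on low counts (0.0616), with the 1 CPM filter (0.0852) and over genes with a GC value only (0.161). ULK2, the second kinase, was the scarcest of the complex at 4.93, 4.63 and 5.25 CPM in the 7R libraries, against 3.73, 4.03 and 3.98 CPM in the 786-O libraries. It missed the threshold before adjustment with 0.34 ± 0.17 (SE, adjusted p = 0.0915) and passed it after, with 0.44 ± 0.16 (SE, adjusted p = 0.0265). Without adjustment it passed with library totals alone (adjusted p = 0.00315) and over genes with a GC value only (0.0379). The complex therefore had 4 of 5 genes higher after adjustment, with a median log2 fold change of 0.44, compared with -0.24 before.

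The ratio of RB1CC1 to ATG101, in CPM per kilobase of transcript, was 0.692 in 7R and 0.0382 in 786-O (means of 3 libraries). After adjustment it was 0.267 in 7R and 0.0941 in 786-O. Both differences separate the libraries completely, at an exact two-sided permutation p of 0.1, the smallest that 3 against 3 libraries can give. Among 14 such ratio comparisons, 7 pairs chosen after their values were seen on 2 scales each, the Benjamini-Hochberg adjusted p was 0.117.

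The class III phosphatidylinositol 3-kinase complex had 3 of 6 genes higher in 7R, 1 lower and 2 not called. PIK3C3, or VPS34, is the lipid kinase that makes the phosphatidylinositol 3-phosphate on the growing membrane. It had 36.3, 44.8 and 48.1 CPM in the 7R libraries, against 14.8, 10.6 and 11.2 CPM in the 786-O libraries. The groups were well apart, with a log2 fold change at 1.82 ± 0.16 (SE, adjusted p = 7.81e-07), and an adjusted one of 0.76 ± 0.097 (SE, adjusted p = 2.98e-05). PIK3R4, or VPS15, the pseudokinase that binds PIK3C3, had 56.9, 60.9 and 59.95 CPM in the 7R libraries, against 41.7, 37.6 and 35.9 CPM in the 786-O libraries. Its log2 fold change, 0.63 ± 0.11 (SE, adjusted p = 1.87e-04), was -0.056 ± 0.069 (SE, adjusted p = 0.492) after adjustment, without a call. UVRAG, the subunit that replaces ATG14 in the endosomal form of the complex, averaged 19.1 ± 0.829 CPM in 7R and 12.5 ± 1.34 CPM in 786-O (SD, n = 3 each). It was higher on both scales, with 0.61 ± 0.13 (SE, adjusted p = 9.11e-04) and, GC-adjusted, 0.38 ± 0.11 (SE, adjusted p = 0.008398).

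AMBRA1, a scaffold that links the ULK and BECN1 complexes, was lower in 7R on both scales. Its level was 26.8, 24.7 and 24.1 CPM in the 7R libraries, against 65.1, 70.2 and 66.6 CPM in the 786-O libraries, so that each 7R library held less than the lowest 786-O library. The log2 fold change was -1.42 ± 0.11 (SE, adjusted p = 3.50e-07) and -0.57 ± 0.075 (SE, adjusted p = 3.78e-05) after adjustment. BECN1, the scaffold of the complex that BCL2 proteins bind, had 33.6, 37.04 and 35.1 CPM in the 7R libraries, against 38.96, 37.3 and 37.7 CPM in the 786-O libraries. ATG14, the subunit that directs the complex to autophagosome formation, had 8.91, 7.95 and 10.4 CPM in the 7R libraries, against 10.5, 9.82 and 8.95 CPM in the 786-O libraries. The ATG14 libraries of the lines overlapped, and the BECN1 libraries did not. Neither gene passed the test, with -0.11 ± 0.10 (SE, adjusted p = 0.355) for BECN1 and -0.10 ± 0.15 (SE, adjusted p = 0.554) for ATG14, and both values turned positive with library totals alone (0.23 and 0.24). After adjustment both were lower in 7R, with log2 fold changes of -0.29 ± 0.072 (SE, adjusted p = 0.00391) for BECN1 and -0.67 ± 0.14 (SE, adjusted p = 9.45e-04) for ATG14. The complex then had 2 genes higher, 3 lower and 1 not called, with a median log2 fold change of -0.17, compared with 0.25 before.

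Of the 6 genes that supply and mark the membrane, 3 were higher and 3 were lower in 7R. ATG2A and ATG2B are paralogous tubes that carry lipids from the endoplasmic reticulum, and they went opposite ways. ATG2B, at 44.2% GC, had 47.6, 60.5 and 62.1 CPM in the 7R libraries, against 26.3, 21.8 and 23.7 CPM in the 786-O libraries. ATG2A, at 64.7% GC, had 27.7, 21.2 and 24.3 CPM in the 7R libraries, against 49.7, 49.1 and 53.3 CPM in the 786-O libraries. Neither pair of groups overlapped, with 1.24 ± 0.13 (SE, adjusted p = 3.66e-06) for ATG2B and -1.05 ± 0.12 (SE, adjusted p = 7.69e-06) for ATG2A. The ratio of ATG2A to ATG2B per kilobase was 1.54 in 7R and 7.44 in 786-O. After adjustment it was 3.401 in 7R and 3.29 in 786-O (exact two-sided permutation p = 0.7, 0.7 after Benjamini-Hochberg adjustment over the 14 comparisons), and both paralogs were higher in 7R, ATG2A by 0.34 ± 0.072 (SE, adjusted p = 0.00128) and ATG2B by 0.29 ± 0.078 (SE, adjusted p = 0.00557).

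ATG9A, the lipid scramblase of the vesicles that seed the membrane, had 64.7, 43.96 and 50.2 CPM in the 7R libraries, against 122, 124 and 138 CPM in the 786-O libraries. It was lower in every 7R library, with -1.27 ± 0.14 (SE, adjusted p = 4.97e-06), and without a call after adjustment, at -0.17 ± 0.083 (SE, adjusted p = 0.0824), though it was called lower after adjustment without 7R replicate 1 (-0.26, adjusted p = 0.00412). WIPI2, which binds phosphatidylinositol 3-phosphate and recruits ATG16L1, had 47.5, 39.5 and 42.1 CPM in the 7R libraries, against 61.8, 68.9 and 75.8 CPM in the 786-O libraries. Its log2 fold change was -0.68 ± 0.12 (SE, adjusted p = 2.37e-04) and turned to 0.30 ± 0.073 (SE, adjusted p = 0.00305) after adjustment. With the offset on GC content alone WIPI2 had 0.16, without a call (adjusted p = 0.0726). WIPI1, its paralog, averaged 34.03 ± 2.79 CPM in 7R and 24.9 ± 1.69 CPM in 786-O (SD, n = 3 each) and was higher on both scales, with 0.45 ± 0.11 (SE, adjusted p = 0.00324) and, GC-adjusted, 0.70 ± 0.091 (SE, adjusted p = 3.43e-05). VMP1, a scramblase of the endoplasmic reticulum, averaged 235 ± 4.57 CPM in 7R and 148 ± 21.3 CPM in 786-O (SD, n = 3 each), with 0.66 ± 0.11 (SE, adjusted p = 2.00e-04) before and -0.13 ± 0.082 (SE, adjusted p = 0.165) after adjustment. Without 7R replicate 1 the adjusted value of VMP1 was -0.18 and was called lower (adjusted p = 0.0441). The VMP1 gene contains MIR21, and without a stated strand or counting rule reads of overlapping genes cannot be assigned with certainty. After adjustment 4 of these 6 genes were higher in 7R, 0 were lower and 2 were not called, with a median log2 fold change of 0.30, compared with -0.11 before.

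In the conjugation system 6 of 10 enzymes were higher in 7R, 3 were lower and 1 was not called. Here the calls thinned most with adjustment: 3 were higher, 1 was lower and 6 were not called, and the median log2 fold change was 0.05, compared with 0.60 before. ATG12, the ubiquitin-like protein that is joined to ATG5, had 39.8, 46.5 and 51.2 CPM in the 7R libraries, against 24.4, 24.5 and 21.2 CPM in the 786-O libraries. Its log2 fold change was 0.97 ± 0.13 (SE, adjusted p = 1.91e-05) before adjustment and -0.23 ± 0.080 (SE, adjusted p = 0.0239) after it, on the other side of 0. ATG5, its acceptor, averaged 31.5 ± 2.699 CPM in 7R and 16.2 ± 3.33 CPM in 786-O (SD, n = 3 each), with 0.96 ± 0.15 (SE, adjusted p = 9.13e-05) and, GC-adjusted, -0.19 ± 0.10 (SE, adjusted p = 0.106). ATG16L1, the subunit that places the ATG12 and ATG5 conjugate on the membrane, was measured at under 1 CPM. It had 0.741, 0.701 and 0.824 CPM in the 7R libraries, against 0.727, 0.599 and 0.685 CPM in the 786-O libraries, overlapping groups, and a log2 fold change at 0.17 ± 0.35 (SE, adjusted p = 0.6697) before and 0.40 ± 0.35 (SE, adjusted p = 0.324) after adjustment.

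ATG7, the activating enzyme of both conjugation arms, averaged 31.4 ± 2.35 CPM in 7R and 41.8 ± 2.38 CPM in 786-O (SD, n = 3 each). It was lower in 7R, with -0.41 ± 0.11 (SE, adjusted p = 0.00468), and not called after adjustment, at -0.043 ± 0.078 (SE, adjusted p = 0.6404). The call was also lost with library totals alone (-0.067, adjusted p = 0.598). ATG10, the enzyme that hands ATG12 to ATG5, averaged 8.87 ± 0.912 CPM in 7R and 5.07 ± 0.0745 CPM in 786-O and kept its size, with 0.81 ± 0.15 (SE, adjusted p = 4.44e-04) before and 0.81 ± 0.14 (SE, adjusted p = 3.15e-04) after adjustment. ATG10 overlaps RPS23 on the opposite strand, which had 6030 to 7520 counts per library, against 223 to 418 for ATG10. Part of the ATG10 count could belong to RPS23. ATG3, the enzyme that hands ATG8 proteins to the lipid phosphatidylethanolamine, averaged 61.7 ± 3.197 CPM in 7R and 47.004 ± 6.18 CPM in 786-O. The log2 fold change of ATG3 was 0.39 ± 0.12 (SE, adjusted p = 0.01003), a call that was lost without 786-O replicate 3 (adjusted p 0.0864), and the adjusted value was -0.062 ± 0.092 (SE, adjusted p = 0.565).

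The other ATG4 proteases split by GC content as ATG4C and ATG4D did. ATG4B, at 59.3% GC the main protease in most cells, had 60.3, 51.04 and 54.7 CPM in the 7R libraries, against 85.8, 100.2 and 111 CPM in the 786-O libraries. Its log2 fold change was -0.84 ± 0.12 (SE, adjusted p = 5.11e-05) and turned to 0.41 ± 0.073 (SE, adjusted p = 4.01e-04) after adjustment. ATG4A, at 42.7% GC, averaged 10.2 ± 1.63 CPM in 7R and 4.099 ± 0.471 CPM in 786-O (SD, n = 3 each) and was higher on both scales, with 1.32 ± 0.18 (SE, adjusted p = 2.54e-05) and, GC-adjusted, 0.66 ± 0.14 (SE, adjusted p = 0.00154). Per kilobase, ATG4B stood at 5.41 times ATG4A in 7R and 23.97 times in 786-O, and after adjustment at 10.3 times in 7R and 12.2 times in 786-O (exact two-sided permutation p = 0.1 on each scale, 0.117 after Benjamini-Hochberg adjustment). ATG4B was the highest of the 4 proteases in both lines on the unadjusted scale, at 24.3 in 7R and 43.4 in 786-O CPM per kilobase.

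Among the ATG8 proteins, the tags that conjugation puts on the membrane, GABARAP and GABARAPL1 moved in opposite directions although their base composition is alike, 51.2% GC for GABARAP and 52.5% for GABARAPL1. GABARAP had 119, 117 and 127 CPM in the 7R libraries, against 175, 225 and 241 CPM in the 786-O libraries. GABARAPL1 had 54.1, 66.4 and 65.8 CPM in the 7R libraries, against 40.3, 37.4 and 36.6 CPM in the 786-O libraries. All 7R libraries were below all 786-O libraries for GABARAP and above them for GABARAPL1. The log2 fold changes were -0.82 ± 0.12 (SE, adjusted p = 7.22e-05) for GABARAP and 0.71 ± 0.12 (SE, adjusted p = 1.39e-04) for GABARAPL1, and adjustment kept both calls, at -0.57 ± 0.11 (SE, adjusted p = 5.28e-04) and 1.09 ± 0.12 (SE, adjusted p = 9.59e-06). GABARAPL1 was the only member at or above 50% GC that was higher in 7R before adjustment.

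The coding sequences of the pair are identical at 272 of 354 bases (76.8%), and the longest identical run is 14 bases. For GABARAPL1 the coding sequence of the same length as that of GABARAP was used, not its longest one of 441 bases. The last 120 coding bases, positions 235 to 354, are shown as an example stretch. GABARAPL1 is from chromosome 12 and GABARAP from chromosome 17 (GENCODE 29, GRCh38, sense strand), with the 28 bases that differ in capitals.
GABARAPL1: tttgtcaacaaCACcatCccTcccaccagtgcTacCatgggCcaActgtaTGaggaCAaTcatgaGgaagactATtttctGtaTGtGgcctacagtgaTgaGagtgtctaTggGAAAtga
GABARAP: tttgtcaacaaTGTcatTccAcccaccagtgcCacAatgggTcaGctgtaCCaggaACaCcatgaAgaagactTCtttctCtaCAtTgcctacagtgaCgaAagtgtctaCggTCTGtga

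GABARAPL2, the third protein of this subfamily, had 23.3, 22.1 and 19.8 CPM in the 7R libraries, against 22.3, 29.01 and 29.1 CPM in the 786-O libraries. The groups overlapped and the gene missed the threshold, with -0.30 ± 0.13 (SE, adjusted p = 0.05602) and a positive value of 0.045 with library totals alone. It passed without 786-O replicate 1 (adjusted p 0.00628), without 7R replicate 1 (0.0237) or without a filter on low counts (0.0486), and after adjustment it was lower in 7R, with -0.45 ± 0.11 (SE, adjusted p = 0.00324). MAP1LC3B, the LC3 protein most used as a marker of autophagosomes, had 89.6, 93.8 and 104 CPM in the 7R libraries, against 82.7, 87.4 and 78.4 CPM in the 786-O libraries. With 0.21 ± 0.10 (SE, adjusted p = 0.0883) it missed the threshold, though it was called higher without 7R replicate 1 (adjusted p 0.0307), with library totals alone (5.72e-04), with upper-quartile factors (0.0315), with the 1 CPM filter (0.0387) and over genes with a GC value only (0.0218). After adjustment MAP1LC3B had -0.062 ± 0.072 (SE, adjusted p = 0.465), and with the offset on GC content alone it was called lower (-0.21, adjusted p = 0.0287). MAP1LC3A, the other LC3 protein of the list, had 1 count in 7R replicate 2 and 0 counts in the other 5 libraries. A count of 0 allows a level of up to 3 counts, 0.0663 to 0.0707 CPM in these libraries, so no difference was detectable at this depth. Of the 4 tested genes of this family, 1 was higher, 1 lower and 2 not called before adjustment, and 1 was higher, 2 lower and 1 not called after it.

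The makeup of the ATG8 pool was computed as each gene's share of their summed CPM per kilobase. GABARAP made up 47.8 ± 1.49% in 7R and 66.4 ± 3.495% in 786-O (SD, n = 3 each). GABARAPL1 made up 25.8 ± 2.01% in 7R and 12.7 ± 2.22% in 786-O, and MAP1LC3B 17.3 ± 0.539% in 7R and 12.02 ± 1.61% in 786-O. GABARAPL2 held 9.13 ± 1.16% in 7R and 8.85 ± 0.355% in 786-O. The first 3 separated the libraries completely at an exact two-sided permutation p of 0.1, the smallest possible, and 0.158 after Benjamini-Hochberg adjustment over 19 share comparisons. For GABARAPL2 the exact p was 0.7 (0.739 after adjustment). The order of the 4 was GABARAP, GABARAPL1, MAP1LC3B, GABARAPL2 in every 7R library, and in 786-O the shares of GABARAPL1 and MAP1LC3B lay within 1 SD of each other. The shares and their order rest on the lengths used, medians over annotated transcripts, of 722.5 bases for GABARAPL1 and 1656.5 for MAP1LC3B. In CPM, without that division, MAP1LC3B stood above GABARAPL1 in every 7R library. It had 89.6, 93.8 and 104 CPM there, against 54.1, 66.4 and 65.8 CPM for GABARAPL1. With the GC and length adjustment GABARAP held 49.0% in 7R and 64.5% in 786-O, and GABARAPL1 27.8% in 7R and 11.8% in 786-O. MAP1LC3B then held 14.9% in 7R and 13.9% in 786-O and no longer separated the libraries (exact permutation p = 0.4, 0.475 after Benjamini-Hochberg adjustment). GABARAPL2 held 8.21% in 7R and 9.83% in 786-O, with overlap (exact permutation p = 0.2, 0.292 after Benjamini-Hochberg adjustment).

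Cargo receptors were the step with the highest median log2 fold change, 0.84 before and 0.62 after adjustment. Of 5 receptors 4 were higher in 7R and 1, SQSTM1, was lower, beside 39.3% and 36.9% of all genes. After adjustment 5 of 5 were higher, beside 34.4% of all genes. TAX1BP1, a receptor for protein aggregates and bacteria, had the largest difference. Its level was 88.8, 153 and 137 CPM in the 7R libraries, against 33.03, 26.7 and 24.9 CPM in the 786-O libraries. The lines were clearly separate, and 7R replicate 1 was the lowest of its group. The log2 fold change was 2.16 ± 0.19 (SE, adjusted p = 9.06e-07), with a ratio of means of 4.48, and the adjusted one 1.02 ± 0.11 (SE, adjusted p = 7.49e-06), from 72.9, 100.1 and 90.9 CPM in 7R, against 46.2, 41.7 and 42.5 CPM in 786-O.

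CALCOCO2, or NDP52, a receptor for bacteria and mitochondria, had 58.5, 60.1 and 64.6 CPM in the 7R libraries, against 33.7, 30.1 and 31.04 CPM in the 786-O libraries. NBR1, which gathers ubiquitinated cargo together with SQSTM1, had 85.8, 88.8 and 89.96 CPM in the 7R libraries, against 54.8, 44.5 and 50.4 CPM in the 786-O libraries. Both genes were higher in every 7R library, CALCOCO2 by 0.95 ± 0.11 (SE, adjusted p = 5.84e-06) and NBR1 by 0.82 ± 0.11 (SE, adjusted p = 2.60e-05). Adjustment took them to 0.62 ± 0.076 (SE, adjusted p = 2.34e-05) and 0.76 ± 0.083 (SE, adjusted p = 9.13e-06). OPTN, a receptor that TBK1 activates, averaged 94.1 ± 13.7 CPM in 7R and 52.4 ± 2.997 CPM in 786-O (SD, n = 3 each), with 0.84 ± 0.13 (SE, adjusted p = 5.74e-05) and, GC-adjusted, 0.34 ± 0.089 (SE, adjusted p = 0.00527).

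SQSTM1, or p62, binds ubiquitinated proteins and LC3 and is itself degraded by autophagy. Before adjustment it was the most abundant member per kilobase, at 202 in 7R and 330.1 in 786-O CPM per kilobase. After adjustment SQSTM1 was below GABARAP in every 786-O library, at 213, 238 and 233 against 227, 280 and 303 CPM per kilobase. In every 7R library it stayed above GABARAP. Without adjustment SQSTM1 had 380.1, 396 and 428 CPM in the 7R libraries, against 565, 694 and 705 CPM in the 786-O libraries. The 7R libraries were all below the 786-O libraries, and the log2 fold change was -0.71 ± 0.11 (SE, adjusted p = 9.11e-05). Its transcript has 58.1% GC, the highest of the receptors, and after adjustment the levels were 545, 671 and 702 CPM in 7R, against 422, 473 and 462 CPM in 786-O. The adjusted log2 fold change was 0.50 ± 0.093 (SE, adjusted p = 5.61e-04), with 7R above 786-O. The direction for SQSTM1 thus turned with the GC adjustment and held under every other scaling run (relative log expression, upper-quartile and library totals). SQSTM1 overlaps MGAT4B on the opposite strand, so part of its count could belong to that gene.

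Of the summed CPM per kilobase of the 5 receptors, SQSTM1 made up 59.4 ± 2.29% in 7R and 84.1 ± 2.69% in 786-O (SD, n = 3 each). TAX1BP1 held 12.7 ± 2.65% in 7R and 2.53 ± 0.632% in 786-O, CALCOCO2 11.9 ± 0.552% in 7R and 5.39 ± 0.823% in 786-O. The shares of OPTN were 8.17 ± 0.586% in 7R and 4.01 ± 0.560% in 786-O, and those of NBR1 7.92 ± 0.466% in 7R and 3.94 ± 0.743% in 786-O. Each of the 5 separated the lines completely (exact two-sided permutation p = 0.1, 0.158 after Benjamini-Hochberg adjustment over the 19 comparisons). After the GC and length adjustment SQSTM1 held 72.7% in 7R and 75.1% in 786-O, with an exact permutation p of 0.3 (0.38 after Benjamini-Hochberg adjustment). TAX1BP1 then held 6.86% in 7R and 4.96% in 786-O, again without overlap. The share of OPTN turned, to 5.55% in 7R and 6.41% in 786-O, also without overlap (exact permutation p = 0.1, 0.158 after Benjamini-Hochberg adjustment). CALCOCO2 held 8.59% in 7R and 8.12% in 786-O (exact permutation p = 0.6), and NBR1 6.30% in 7R and 5.40% in 786-O (0.3). The libraries of the lines overlapped for CALCOCO2 and NBR1. The ratio of SQSTM1 to TAX1BP1 per kilobase was 4.85 in 7R and 34.7 in 786-O, and 10.6 in 7R and 15.2 in 786-O after adjustment, with no overlap on either scale (exact permutation p = 0.1, 0.117 after Benjamini-Hochberg adjustment).

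**Figure D4:**
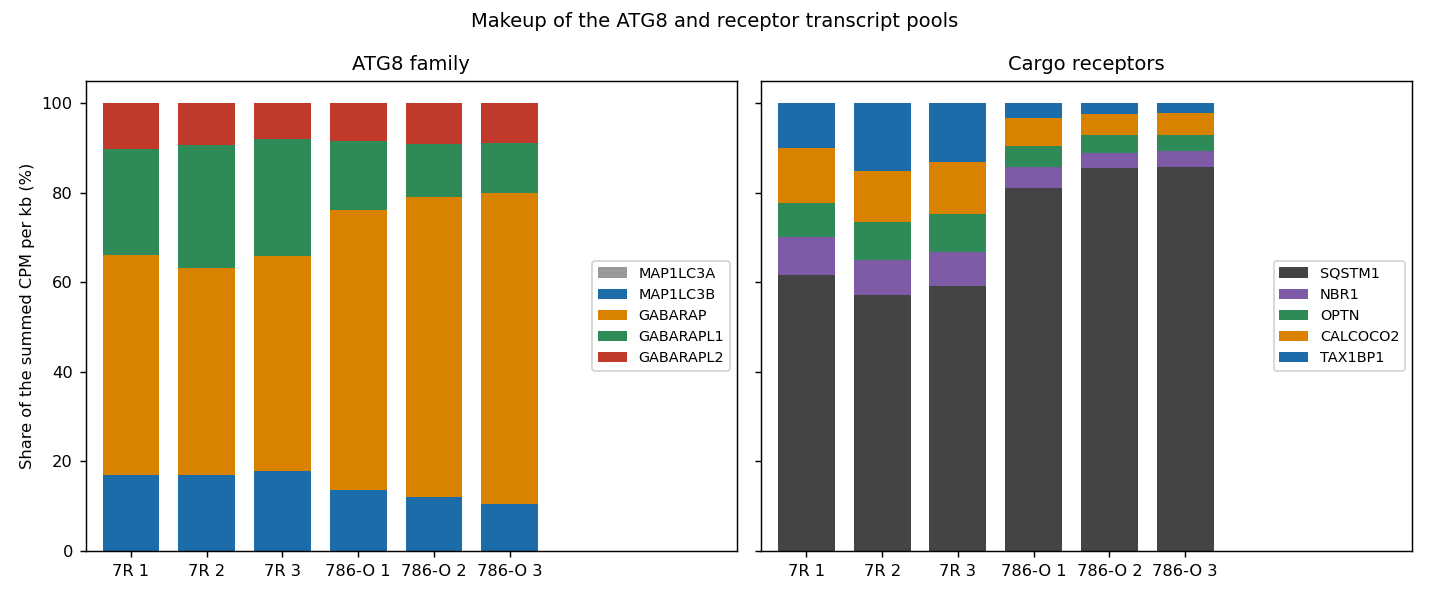
Share in percent of the summed CPM per kilobase that each ATG8 gene (left) and each cargo receptor (right) made up, per library, with 7R left of 786-O, before adjustment. GABARAP (47.8% in 7R, 66.4% in 786-O) and SQSTM1 (59.4% in 7R, 84.1% in 786-O) take smaller shares in 7R, and GABARAPL1 and TAX1BP1 larger ones.

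A further 58 autophagy genes were chosen by function, with earlier results of these data known. Of the 54 that were tested, 23 were higher in 7R (42.6%), 22 were lower (40.7%) and 9 were not called, near the 39.3% and 36.9% of all tested genes, with a median log2 fold change of -0.02. After adjustment 21 were higher (38.9%) and 15 lower (27.8%), with a median of 0.05, beside 34.4% and 32.6% of all genes. Library totals alone left 27 higher and 16 lower, beside 47.2% and 28.4% of all genes. The log2 fold change again fell with GC content (Spearman correlation -0.79 over 54 genes).

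Among other early factors, 6 of 10 genes tested were higher and 4 lower in 7R, and 5 and 3 after adjustment. SH3GLB1, or endophilin B1, a membrane-bending partner of UVRAG, had 142, 213 and 207 CPM in the 7R libraries, against 72.6, 61.02 and 57.4 CPM in the 786-O libraries. TMEM41B, a scramblase that works with VMP1, had 28.8, 36.04 and 37.6 CPM in the 7R libraries, against 12.4, 15.8 and 13.1 CPM in the 786-O libraries. Both were higher in every 7R library, SH3GLB1 by 1.56 ± 0.16 (SE, adjusted p = 2.46e-06) and, GC-adjusted, 0.30 ± 0.076 (SE, adjusted p = 0.00409), and TMEM41B by 1.31 ± 0.14 (SE, adjusted p = 4.17e-06) and, GC-adjusted, 0.71 ± 0.12 (SE, adjusted p = 2.25e-04). ZFYVE1, or DFCP1, a marker of the sites where autophagosomes form, averaged 6.09 ± 0.553 CPM in 7R and 12.4 ± 0.238 CPM in 786-O (SD, n = 3 each), with -1.03 ± 0.14 (SE, adjusted p = 3.33e-05) before and -0.47 ± 0.13 (SE, adjusted p = 0.00793) after adjustment.

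Inhibitors of the lipid kinase complex and related brakes and modulators had 1 gene higher and 4 lower of 6 tested, and 2 and 2 after adjustment. BCL2L1, or BCL-XL, which holds BECN1 inactive, averaged 197 ± 24.4 CPM in 7R and 454 ± 38.01 CPM in 786-O (SD, n = 3 each), with -1.201 ± 0.12 (SE, adjusted p = 1.79e-06) before and -0.24 ± 0.068 (SE, adjusted p = 0.00887) after adjustment. DAPK1, a kinase that frees BECN1 from such binding, averaged 96.5 ± 8.18 CPM in 7R and 370.3 ± 31.1 CPM in 786-O, with -1.94 ± 0.11 (SE, adjusted p = 7.12e-08) and, GC-adjusted, -1.71 ± 0.083 (SE, adjusted p = 2.85e-08). MTMR14, a phosphatase that removes the lipid made by PIK3C3, averaged 14.4 ± 0.808 CPM in 7R and 29.3 ± 2.56 CPM in 786-O, with -1.02 ± 0.12 (SE, adjusted p = 7.56e-06) and, GC-adjusted, -0.038 ± 0.092 (SE, adjusted p = 0.731). A list named for brakes thus also holds DAPK1, which acts the other way on BECN1.

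Of the genes for fusion with lysosomes, 5 of 15 tested were higher and 7 lower, and 4 and 5 after adjustment. VPS18, a core subunit of the tethering complexes HOPS and CORVET, averaged 35.3 ± 1.35 CPM in 7R and 97.02 ± 8.73 CPM in 786-O (SD, n = 3 each), lower in 7R with -1.46 ± 0.11 (SE, adjusted p = 3.73e-07) and, GC-adjusted, -0.23 ± 0.089 (SE, adjusted p = 0.0411). Without 7R replicate 1 the GC-adjusted value of VPS18 was -0.15 and the call was lost (adjusted p = 0.0713). VPS41, a subunit of HOPS alone, averaged 55.9 ± 9.07 CPM in 7R and 18.6 ± 2.44 CPM in 786-O and was higher by 1.59 ± 0.15 (SE, adjusted p = 1.33e-06) and, GC-adjusted, 0.53 ± 0.084 (SE, adjusted p = 1.75e-04). STX7, a SNARE protein of late endosomes, averaged 51.3 ± 4.38 CPM in 7R and 22.03 ± 2.05 CPM in 786-O, with 1.22 ± 0.12 (SE, adjusted p = 1.95e-06) and, GC-adjusted, 0.081 ± 0.098 (SE, adjusted p = 0.482). The offset on GC content alone left STX7 called higher (0.27, adjusted p = 0.0217).

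Receptors for mitochondria and the endoplasmic reticulum had 6 of 14 genes higher and 4 lower, before and after adjustment, but these were not the same genes. With adjustment 5 stayed higher and 1 stayed lower, and 1 turned from lower to higher. The call was lost by 1 gene higher before and 2 lower before, and 3 genes not called before became lower. FKBP8, a mitophagy receptor that binds LC3, averaged 63.3 ± 8.97 CPM in 7R and 205 ± 10.97 CPM in 786-O (SD, n = 3 each), with -1.69 ± 0.12 (SE, adjusted p = 2.60e-07) and, GC-adjusted, -0.072 ± 0.063 (SE, adjusted p = 0.333). The offset on GC content alone left FKBP8 called lower (-0.19, adjusted p = 0.0199). RETREG1, the reticulophagy receptor listed in the table by its older symbol FAM134B, averaged 3.74 ± 1.06 CPM in 7R and 0.272 ± 0.0487 CPM in 786-O, with 3.77 ± 0.33 (SE, adjusted p = 9.47e-07) and, GC-adjusted, 2.61 ± 0.28 (SE, adjusted p = 8.93e-06). The size of its difference rests on few reads in 786-O, with 14, 12 and 10 counts in those libraries. SEC62, a translocon subunit that also acts as a receptor in recovery from stress, averaged 123 ± 33.8 CPM in 7R and 25.3 ± 4.79 CPM in 786-O, with 2.28 ± 0.20 (SE, adjusted p = 1.08e-06) and, GC-adjusted, 1.06 ± 0.12 (SE, adjusted p = 9.27e-06).

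In the last list, of other selective factors, 5 of 9 genes were higher and 3 lower, and 4 and 1 after adjustment. TBK1, the kinase that phosphorylates OPTN and SQSTM1, averaged 36.9 ± 8.02 CPM in 7R and 9.301 ± 0.808 CPM in 786-O (SD, n = 3 each), with 1.99 ± 0.16 (SE, adjusted p = 6.43e-07) and, GC-adjusted, 0.82 ± 0.098 (SE, adjusted p = 1.90e-05). WDFY3, or ALFY, a scaffold for the clearance of aggregates, averaged 206 ± 1.596 CPM in 7R and 95.5 ± 9.22 CPM in 786-O, with 1.11 ± 0.10 (SE, adjusted p = 1.42e-06) and, GC-adjusted, 0.11 ± 0.080 (SE, adjusted p = 0.265). With the offset on GC content alone WDFY3 stayed higher (0.499, adjusted p = 1.05e-04). TOLLIP, an adaptor with a ubiquitin-binding domain, averaged 26.9 ± 4.803 CPM in 7R and 70.5 ± 5.36 CPM in 786-O, with -1.39 ± 0.14 (SE, adjusted p = 2.09e-06) and, GC-adjusted, -0.37 ± 0.082 (SE, adjusted p = 0.001902).

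**Figure D5:**
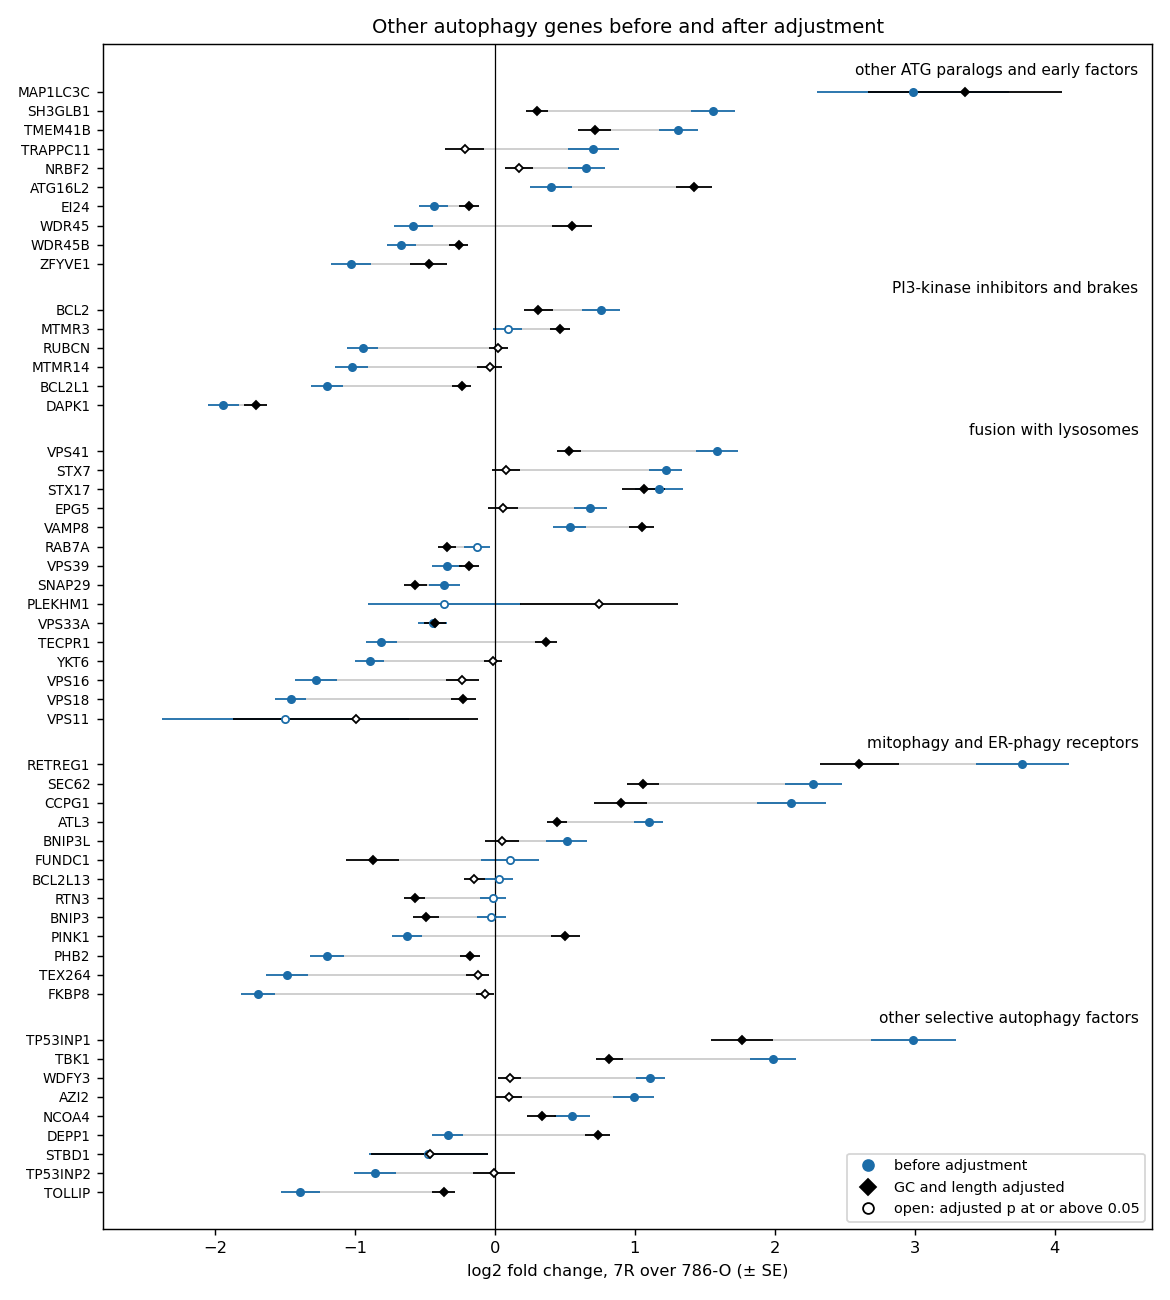
Log2 fold change, 7R over 786-O, of tested genes of the 5 other autophagy lists, each point 1 gene, before and after the GC and length adjustment. Within every list points lie on both sides of 0 before adjustment.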

How the data were processed

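Per the labels, 3 libraries of each line were sequenced (Illumina). The values deposited by the authors are raw read counts, 1 row a gene symbol and 1 column a library, and 0 sample columns were left unused. HISAT2 2.0.4 is named in the submitters' processing notes. The genome build, annotation, counting tool and strandedness were not given in the sources used here. Libraries were grouped by title and phenotype. Same-numbered libraries did not deviate together.

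Genes were kept with filterByExpr, scaled by TMM and tested in R 4.3.3 by the quasi-likelihood test of edgeR 4.0.16, without covariates, with Benjamini-Hochberg adjustment over 16642 genes at 0.05. The SE of a log2 fold change is its size divided by the root of the F statistic. CPM are on the TMM scale. GC content and length are medians over GENCODE 29 basic transcripts (34718 rows matched by name and 674 by another RefSeq symbol), available for 14201 tested genes (85.3%). For the adjustment, each library's deviation in log2 CPM (prior count 1) was modelled by splines (6 degrees of freedom for GC content and 5 for log2 length), and the model entered as an offset. The scripts were tested on simulated counts with and without such a trend, which says nothing of its source in these libraries. DESeq2 1.42.0, other scalings, filters, a replicate block and left-out libraries were the alternatives. Limits from a count of 0 cover counting error only. Figures were drawn with matplotlib 3.10.9.

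Members named with all libraries were the 3 with the smallest p in each step, those whose direction turned with the adjustment and those that missed the threshold. For the other lists the 3 with the smallest p were named. MAP1LC3C was named after its values were seen, and 1 other gene counted in those lists is not reported here. Members and lists were chosen with earlier results of these data known. Sequences come from GENCODE 29 (GRCh38).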

Additional observations from a re-analysis of the deposited data

How the results depend on the processing

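The number of members higher in 7R stayed between 17 and 20 under every alternative run, compared with 18, and the number lower stayed between 9 and 13, compared with 12, except with the GC adjustments. The members lower in 7R were 6 with the GC and length offset, 7 with the offset on GC content alone and 6 with the GC and length offset with the replicate block. Restricting the fit to genes with a GC value, without an offset, left 20 higher and 11 lower. Leaving out 1 library at a time gave 17 to 19 members higher and 11 to 13 lower, 21 to 23 other autophagy genes higher and 20 to 23 lower, and 6179 to 6789 of all genes higher and 5894 to 6410 lower. With DESeq2 and with relative log expression factors no call changed among 51 named genes.

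The counts did not show a pairing of libraries by the replicate numbers of the titles. Same-numbered deviations correlated at -0.13, -0.01 and -0.06, and 0 of 3 numbers correlated best with its own. Each deviation is from the mean of only 3 libraries, so these correlations cannot show whether same-numbered libraries were prepared together. With the number as a replicate block 18 members were higher and 11 lower, the call lost being that of ATG13 (adjusted p 0.125), and with the GC and length offset it ended the call of ULK2 (adjusted p 0.053). The other autophagy genes lower in 7R were 22 without a block or offset. They were 15 with the GC and length offset alone and 12 with that offset and the replicate block.

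Directions turned with the GC adjustments and with library totals alone, in log2 fold change, 7R over 786-O. The values below cover only genes named in the text. Of the 22 other autophagy genes called lower, 4 that are not named were called higher with the GC and length offset. The source of the GC trend was not tested. The GC and length offset gave 0.80 for ULK1, 0.27 for ATG13, -0.056 for PIK3R4, 0.34 for ATG2A, 0.30 for WIPI2, -0.13 for VMP1, -0.062 for ATG3, 0.41 for ATG4B, 0.030 for ATG4D, -0.19 for ATG5, -0.23 for ATG12, -0.062 for MAP1LC3B and 0.50 for SQSTM1. With the replicate block added it gave 0.80 for ULK1, 0.27 for ATG13, -0.056 for PIK3R4, 0.34 for ATG2A, 0.30 for WIPI2, -0.13 for VMP1, -0.063 for ATG3, 0.41 for ATG4B, 0.029 for ATG4D, -0.19 for ATG5, -0.23 for ATG12, -0.063 for MAP1LC3B and 0.49 for SQSTM1. Without 7R replicate 1 it gave 0.76 for ULK1, 0.30 for ATG13, 0.0017 for ATG101, -0.070 for PIK3R4, 0.34 for ATG2A, 0.27 for WIPI2, -0.18 for VMP1, -0.14 for ATG3, 0.41 for ATG4B, 0.030 for ATG4D, -0.24 for ATG5, -0.24 for ATG12, -0.035 for MAP1LC3B, 0.58 for SQSTM1 and 0.0030 for MTMR14. The offset on GC content alone gave 0.91 for ULK1, 0.29 for ATG13, 0.41 for ATG2A, 0.16 for WIPI2, -0.18 for VMP1, -0.17 for ATG3, 0.33 for ATG4B, -0.23 for ATG5, -0.27 for ATG12, -0.21 for MAP1LC3B and 0.37 for SQSTM1. Library totals alone gave 0.10 for ATG13, 0.23 for BECN1, 0.24 for ATG14 and 0.045 for GABARAPL2.

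Genes near the count floor limit the depth of what can be read: ATG16L1 was under 1 CPM and MAP1LC3A had 1 count in all. All values compare 1 line with 1 line, and the labels do not show that the libraries came from separate cultures.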

Other observations

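Among the other autophagy genes, MAP1LC3C, the third LC3 protein, was singled out after its values were seen. It had 0.231, 0.351 and 0.377 CPM in the 7R libraries, against 0.0454, 0.0461 and 0.0221 CPM in the 786-O libraries, that is 10, 15 and 16 counts in 7R and 2, 2 and 1 counts in 786-O. The adjusted p was 0.00166 and, with the GC and length offset, 0.00113 (edgeR's quasi-likelihood test), and no fold is given at counts this low.

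The promoters of the 33 members with a RefSeq entry (GRCh38.p14, 250 bases before to 50 after the start) were searched on both strands for 4 motifs. The CLEAR element of TFEB, searched as TCACGTG, was in 2 of them (ATG3 and ATG14, 6.06%) and in 3.82% of 27305 promoters of all genes. The E-box within it, CACGTG, was in the same 2 genes (6.06%) and in 7.43% of all. The antioxidant response element, searched as TGACNNNGC, was in 3 (ATG101, CALCOCO2 and MAP1LC3B, 9.09%) and in 13.6% of all. The ATF4 site, searched as TGATGNAA, was in 0 of 33 and in 3.67% of all. These matches are descriptions of letters in a window.

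Of the 37 members 13 overlap, on GRCh38, another gene with at least 600 counts over all libraries (ATG10, ATG12, ATG2B, ATG3, ATG4B, ATG4D, ATG7, BECN1, MAP1LC3B, SQSTM1, TAX1BP1, VMP1 and WIPI1). Reads of these pairs may have been counted together. In some pairs the other gene had far more counts than the member. RPS23 had 6030 to 7520 per library against 223 to 418 for ATG10, and PSME3 8790 to 17909 against 1450 to 1715 for BECN1.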
